A study of Mus musculus with 18 samples.

Results

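The neural basic helix-loop-helix (bHLH) transcription factor genes described here are Olig1, Olig2, Olig3, Neurog1, Neurog2, Neurog3, Neurod1 and Atoh1, chosen by symbol from the 56551 genes of the deposited expression table. All 8 were in the table. They were measured by RNA sequencing of mouse embryonic stem cells in 6 groups of 3 libraries, 18 libraries in all. The groups were Ring1a-KO (Ring1a-/-), Ring1b-KO (Ring1b-/-), Ring1a/b-dKO (both genes deleted), Pcgf-4KO (Pcgf1/3/5/6-/-), Pcgf-6KO, with the genotype Pcgf1/2/3/4/5/6-/-, and WT. The labels name no culture medium, parental clone, batch or treatment. Nor do they tell whether replicate libraries are separate cultures, so p-values measure the spread among these libraries alone. The comparisons address how the loss of one or both catalytic subunits, or of 4 or all 6 PCGF proteins, is matched by levels of these genes.

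Proneural bHLH proteins bind the DNA element called the E-box as dimers with ubiquitous E proteins. Id proteins capture the E proteins in dimers that cannot bind DNA, and Notch signalling, through Hes repressors, keeps proneural genes low in neighbouring progenitors. Polycomb repressive complex 1 (PRC1) places ubiquitin on histone H2A through RING1A or RING1B, a PCGF protein defines each variant of the complex, and promoters of developmental regulators rich in CG dinucleotides are among its main sites in embryonic stem cells.

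Promoter sequences of 5 members are shown because the results turn on these genes: Olig2, Neurod1 and Neurog1 had over 1 TPM (the share of all transcripts, corrected for transcript length and scaled to 1000000) in WT and fell in some knockouts, while Atoh1 and Neurog2 were under 1 TPM in WT and higher in others. Each is the RefSeq window of 300 bases, from 250 before to 50 after the transcript start, on GRCm38.p6, written 5′ to 3′ on the gene's strand with every CG dinucleotide in capitals. The windows are chr16:91225300-91225599 (plus strand) for Olig2, chr2:79456587-79456886 (minus strand) for Neurod1, chr13:56252131-56252430 (minus strand) for Neurog1, chr6:64728875-64729174 (plus strand) for Atoh1 and chr3:127632886-127633185 (plus strand) for Neurog2. The RefSeq table held 7 of the 8 members, all but Olig1.
Olig2: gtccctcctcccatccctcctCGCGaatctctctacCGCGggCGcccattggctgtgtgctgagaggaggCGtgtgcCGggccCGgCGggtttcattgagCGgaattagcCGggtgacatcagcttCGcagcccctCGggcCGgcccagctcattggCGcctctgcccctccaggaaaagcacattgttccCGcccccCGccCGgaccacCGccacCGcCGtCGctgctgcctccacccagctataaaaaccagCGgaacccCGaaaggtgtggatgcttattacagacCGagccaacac
Neurod1: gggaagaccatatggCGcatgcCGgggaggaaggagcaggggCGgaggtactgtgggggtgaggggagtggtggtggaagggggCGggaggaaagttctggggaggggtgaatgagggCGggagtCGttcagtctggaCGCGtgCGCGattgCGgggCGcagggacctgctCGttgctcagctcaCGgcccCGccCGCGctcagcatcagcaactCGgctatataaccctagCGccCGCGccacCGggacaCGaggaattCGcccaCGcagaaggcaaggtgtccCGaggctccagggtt
Neurog1: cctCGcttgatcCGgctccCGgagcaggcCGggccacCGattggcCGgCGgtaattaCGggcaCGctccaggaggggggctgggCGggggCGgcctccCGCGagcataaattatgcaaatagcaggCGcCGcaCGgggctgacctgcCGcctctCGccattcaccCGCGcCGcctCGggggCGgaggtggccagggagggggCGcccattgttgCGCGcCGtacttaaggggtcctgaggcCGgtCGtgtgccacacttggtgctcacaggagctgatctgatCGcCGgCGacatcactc
Atoh1: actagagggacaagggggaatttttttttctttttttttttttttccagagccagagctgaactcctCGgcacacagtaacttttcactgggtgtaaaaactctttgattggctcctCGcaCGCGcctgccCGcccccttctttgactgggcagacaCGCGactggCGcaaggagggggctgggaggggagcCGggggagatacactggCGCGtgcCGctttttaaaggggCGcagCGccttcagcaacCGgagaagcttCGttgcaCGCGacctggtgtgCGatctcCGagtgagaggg
Neurog2: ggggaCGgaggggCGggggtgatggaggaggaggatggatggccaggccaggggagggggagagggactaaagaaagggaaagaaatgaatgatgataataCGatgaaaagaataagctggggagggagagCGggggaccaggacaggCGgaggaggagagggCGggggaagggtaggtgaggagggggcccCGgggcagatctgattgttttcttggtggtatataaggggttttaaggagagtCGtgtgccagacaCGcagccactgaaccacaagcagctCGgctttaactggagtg

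All windows but that of Olig3 held more CG than the median promoter. Neurog1 held 32 CG dinucleotides, and 9.52% of the 32851 mouse promoters in the table held as many. Neurod1 held 26 (16.9% of promoters held as many), Olig2 25 (18.4%), Atoh1 20 (26.5%), Neurog3 19 (28.1%) and Neurog2 10 (43.5%), against a median of 7 over all promoters. Olig3 held 4, and 68.6% of promoters held as many. The E-box CANNTG, searched on both strands, matched once each in Neurog1, Neurod1, Neurog3 and Olig3 and not in the other 3 windows, while 72.3% of all promoters held at least 1 match. TATAAA matched in Olig2 and Olig3 (13.6% of promoters). CACNAG, the N-box that Hes proteins can bind, matched once in Neurod1, Atoh1 and Neurog2 (42.5% of promoters). CCAAT matched 2 times in Olig2 and once in Neurog1, Atoh1, Neurog3 and Olig3 (37.4% of promoters).

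In WT cells the 8 genes covered a wide range of levels. Olig1 averaged 51.5 ± 0.8 TPM, Olig2 28.7 ± 0.1, Neurod1 17.7 ± 1.4 and Neurog1 5.95 ± 0.53 (SD, n = 3). Atoh1 averaged 0.62 ± 0.08 TPM and Neurog3 0.61 ± 0.14, and Olig3 (0.16 ± 0.08) and Neurog2 (0.04 ± 0.03) lay lowest. The summed level of the 8 was 98.3 ± 3.6 TPM in Ring1a-KO, 53.5 ± 2.4 in Ring1b-KO, 49.4 ± 0.4 in Ring1a/b-dKO, 56.5 ± 0.5 in Pcgf-4KO and 21.5 ± 1.3 in Pcgf-6KO, against 105 ± 2 in WT. Olig1 and Olig2 made up most of that sum in each group except Pcgf-6KO. These are bulk libraries, so fewer cells with a transcript and less of it per cell cannot be told apart.

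**Figure D1:**
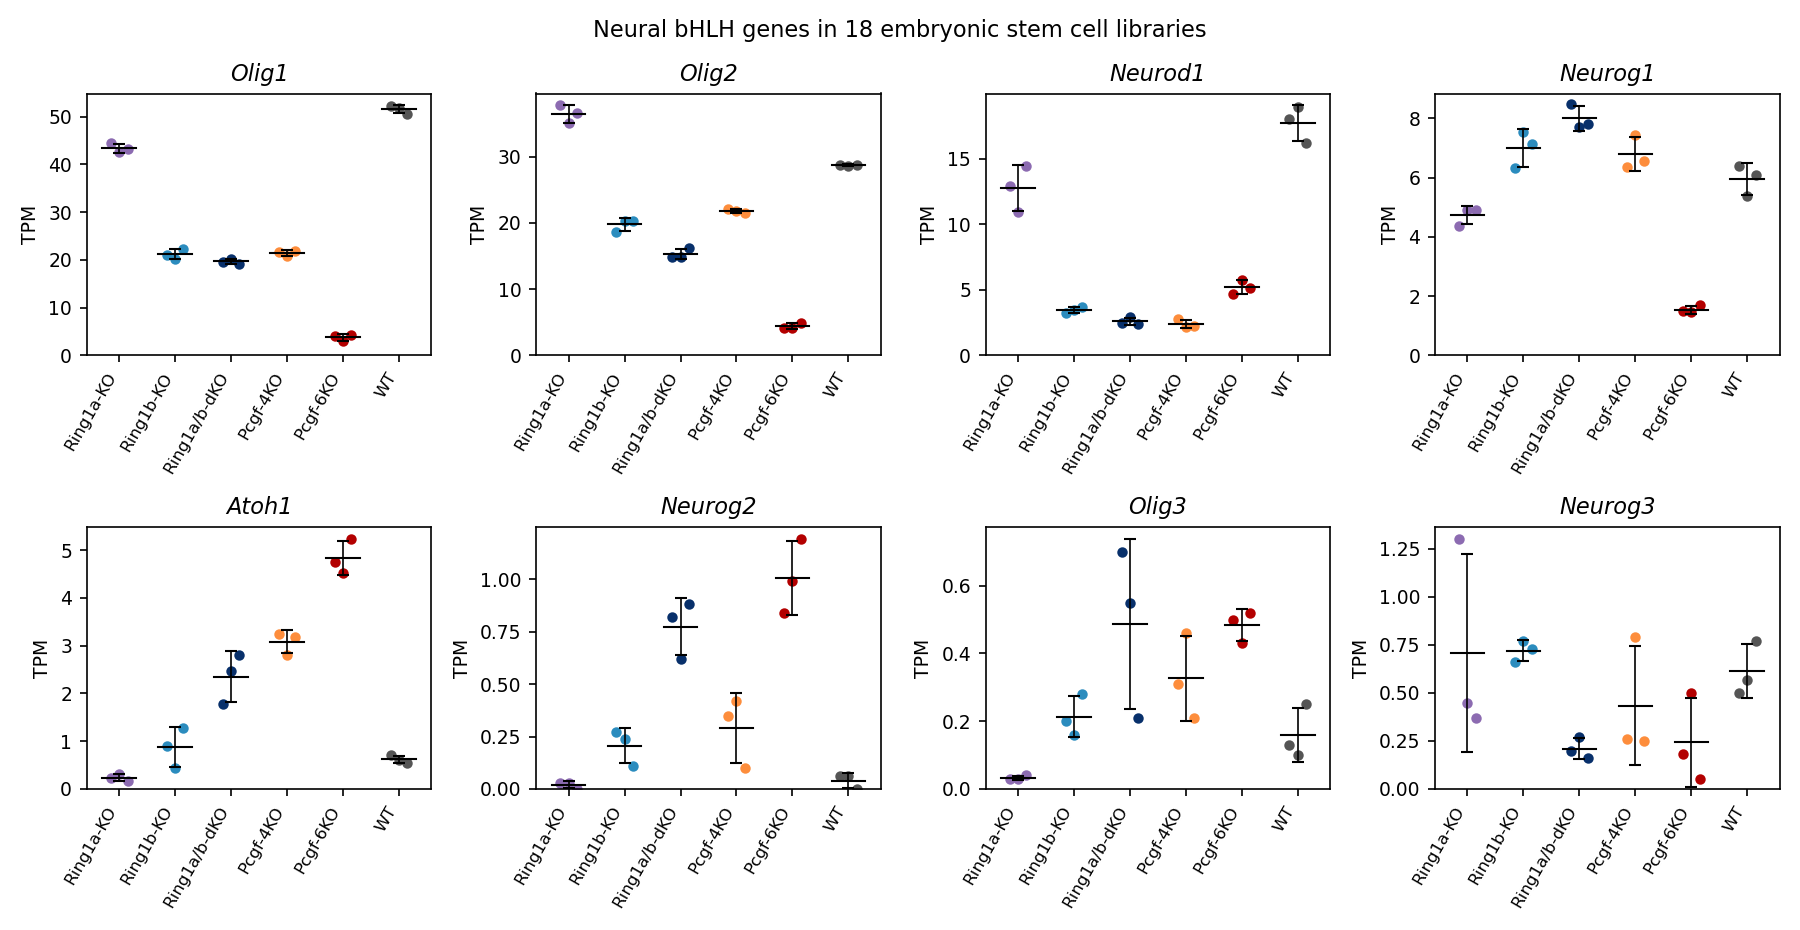
Level in TPM of each of the 8 genes in each library (points), with the group mean (bar) and SD (error bar, n = 3); each panel has its own axis from 0. Olig1, Olig2, Neurod1 and Neurog1 were over 1 TPM in WT. All 4 fell in Pcgf-6KO (limma, adjusted p under 0.05), as did 27.8% of all tested genes at 1 TPM or more in WT. Atoh1 and Neurog2 were highest in Pcgf-6KO.

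Tests used limma on log2(TPM + 1) over the 17842 genes that reached 1 TPM in at least 3 libraries, with Benjamini-Hochberg adjustment over all of them in each comparison, and a call is an adjusted p under 0.05. On that scale a fold change understates the change of low genes. The filter passed 5 members: Olig1, Olig2, Neurod1 and Neurog1, which reached 1 TPM in WT, and Atoh1, which reached it only in knockouts and so had to differ. Olig3, Neurog2 and Neurog3 did not pass and were fitted without the filter, over 35397 genes listed above 0 in at least 1 library. That fit called 10.1% of genes in Ring1a-KO, 27.8% in Ring1b-KO, 35.2% in Ring1a/b-dKO, 34.4% in Pcgf-4KO and 45.4% in Pcgf-6KO, all against WT. In Ring1a-KO, 1 of the 5 tested members rose and 3 fell, beside 23.1% of all tested genes called, 12.3% higher and 10.8% lower. In Ring1b-KO, 3 fell (51.8% of all genes called, 34.7% higher and 17.1% lower); in Ring1a/b-dKO, 2 rose and 3 fell (64.4% called, 48.6% higher and 15.8% lower). In Pcgf-4KO, 1 rose and 3 fell (65% called, 47.1% higher and 17.9% lower). In Pcgf-6KO, 1 rose and 4 fell (74.2% called, 51.7% higher and 22.5% lower). The 5 comparisons share the WT libraries. The median log2 change of all tested genes was 0.01 in Ring1a-KO, 0.13 in Ring1b-KO, 0.28 in Ring1a/b-dKO, 0.25 in the Pcgf-4KO cells and 0.33 in Pcgf-6KO. Rescaling by median ratios moved those medians to between -0.01 and 0.04, and moved the share of calls that were higher from 75.5% to 50.6% in Ring1a/b-dKO and from 69.6% to 52.1% in Pcgf-6KO.

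**Figure D2:**
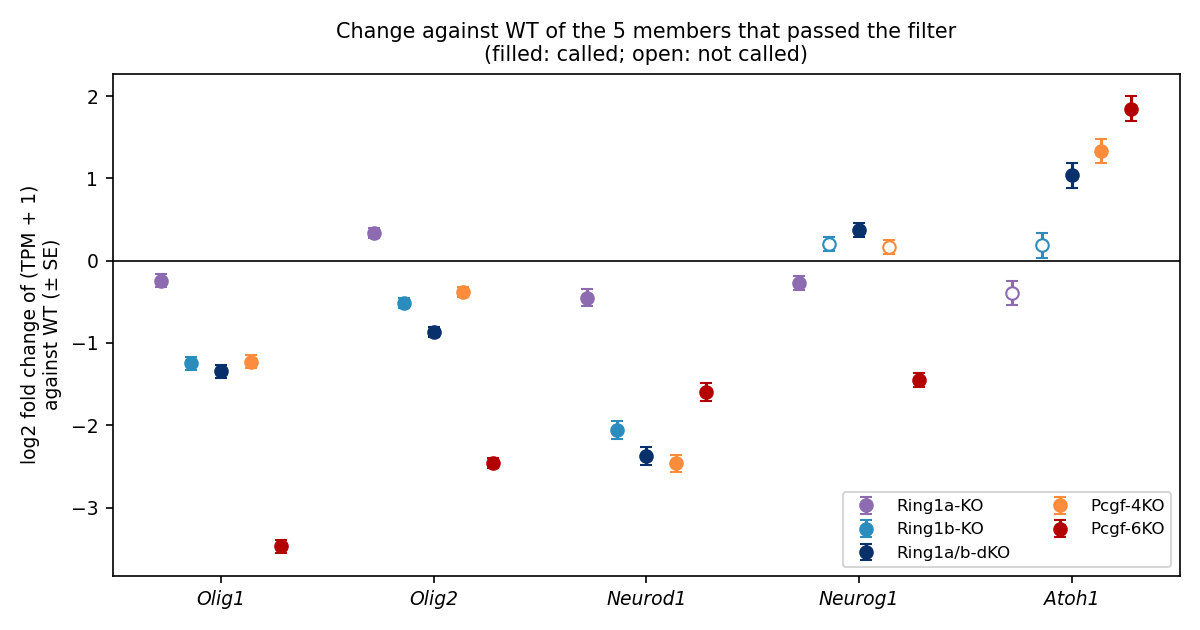
Log2 fold change of (TPM + 1) against WT, with its standard error, for the 5 members that passed the filter; filled points were called at an adjusted p under 0.05 (limma) and open points were not. In Pcgf-6KO, Olig1 was lower by 3.47 and Olig2 by 2.46 on the log2 scale, and Atoh1 was higher by 1.85.

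Some facts on the libraries touch all of these values. Between 14207 and 16585 genes reached 1 TPM per library, and no pair of libraries was identical. Small RNA genes took 2.88% and 1.32% of the TPM in Ring1a-KO libraries 2 and 3, against 0.21% to 0.67% in the other 16. Leaving out both leaves 1 Ring1a-KO library, so values without them are given as effect sizes alone. Without both libraries, the log2 change in Ring1a-KO against WT was 0.38 for Olig2, 1.53 for Id1, 1.42 for Id2 and -0.45 for Id3. It was -1.08 for Hes6, -1.23 for Dll1, -0.80 for Dll3, -1.67 for Insm1, 0.71 for Stmn2 and -1.03 for Myrf. Atoh1 was at -0.40 without both libraries, and Id4, a rise of 0.31 with them, was at 0.19. Among the deleted genes, Rnf2 (Ring1b) averaged 49.4 TPM in Ring1b-KO and 22.8 TPM in Ring1a/b-dKO, against 71.3 TPM in WT, and Pcgf6 averaged 0.06 TPM in Pcgf-4KO and 10.6 TPM in Pcgf-6KO, against 53.0 TPM in WT. Ring1 (Ring1a) had 5.46, 3.83 and 2.86 TPM in Ring1a-KO and 2.74, 6.12 and 9.40 TPM in Ring1a/b-dKO, against 7.42, 7.10 and 7.11 TPM in WT, and was not called in either. Pcgf1 averaged 1.23 TPM in Pcgf-4KO and 3.03 TPM in Pcgf-6KO, against 10.9 TPM in WT. Pcgf5 rose in both groups, to 14.5 TPM in Pcgf-4KO and 22.1 TPM in Pcgf-6KO, against 9.55 TPM in WT. Pcgf3 was not called in either, at 11.8 TPM in Pcgf-4KO and 12.4 TPM in Pcgf-6KO, against 13.2 TPM in WT. Pcgf2 averaged 16.8 TPM in Pcgf-6KO, against 68.6 TPM in WT, and Bmi1 (Pcgf4) rose there, to 15.6 TPM, against 1.60 TPM in WT. The RNA levels of Pcgf3, Pcgf5 and Bmi1, and of Ring1 in Ring1a/b-dKO, thus do not bear out the labels. For Ring1, every Ring1a-KO library lay below every WT library, without a call. The labels do not say which part of each gene was removed, so a level summed over a whole gene does not check a deletion, and group names stand for libraries labelled so. Transcripts of the stem cell factor Pou5f1 were present in every group, at 412 TPM in Pcgf-6KO, against 1112 TPM in WT.

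Olig1 and Olig2 encode related factors that specify oligodendrocytes, and Olig2 also motor neurons. They lie on chromosome 16 of GRCm38 (GENCODE M21), Olig2 at 91225457-91228677 and Olig1 at 91269772-91271933, with 41095 bases between them. Olig1 measured 44.4, 42.5 and 43.1 TPM in Ring1a-KO, 20.9, 20.3 and 22.4 in Ring1b-KO, 19.7, 20.3 and 19.1 in Ring1a/b-dKO, 21.7, 20.8 and 21.9 in Pcgf-4KO cells and 4.08, 2.99 and 4.24 in Pcgf-6KO, against 52.1, 51.9 and 50.6 TPM in WT. Every knockout library lay below every WT library, Ring1b-KO, Ring1a/b-dKO and Pcgf-4KO shared a narrow band, and Pcgf-6KO stood apart at the bottom. Olig1 fell by 1.24 ± 0.08 (log2, SE) in Ring1b-KO, by 1.35 ± 0.08 in Ring1a/b-dKO and by 1.23 ± 0.08 in Pcgf-4KO. In Pcgf-6KO it fell by 3.47 ± 0.08 (limma, adjusted p = 7.72e-15). In Ring1a-KO the change was -0.24 ± 0.08 (adjusted p = 0.036). That call was lost when any one of the 3 Ring1a-KO or 3 WT libraries was left out, with adjusted p from 0.0576 to 0.0948. Without Ring1a-KO libraries 2 and 3 together, which leaves 1 library in that group, the change was -0.21.

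Olig2 had 37.8, 35.1 and 36.5 TPM in Ring1a-KO, 18.7, 20.3 and 20.3 in Ring1b-KO, 14.9, 14.8 and 16.2 in Ring1a/b-dKO, 22.0, 21.7 and 21.6 in Pcgf-4KO cells and 4.2, 4.14 and 4.9 in Pcgf-6KO, against 28.8, 28.6 and 28.8 TPM in WT. No 2 neighbouring groups in the order of the means overlapped: Ring1a-KO was highest, then WT, Pcgf-4KO, Ring1b-KO, Ring1a/b-dKO and Pcgf-6KO. Olig2 rose by 0.33 ± 0.06 in Ring1a-KO (limma, adjusted p = 7.72e-04). It fell by 0.52 ± 0.06 in Ring1b-KO, by 0.87 ± 0.06 in Ring1a/b-dKO, by 0.38 ± 0.06 in Pcgf-4KO and by 2.46 ± 0.06 in Pcgf-6KO (adjusted p = 1.31e-14). Among genes at 1 TPM or more in WT, 8.33% fell at least 2-fold in Pcgf-6KO, 5.6% in Pcgf-4KO and 4.11% in Ring1a/b-dKO.

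The balance of the neighbours also differed. The Olig1 to Olig2 ratio of TPM was 1.19 ± 0.02 in Ring1a-KO, 1.07 ± 0.06 in Ring1b-KO, 1.29 ± 0.10 in Ring1a/b-dKO, 0.985 ± 0.031 in Pcgf-4KO and 0.853 ± 0.125 in Pcgf-6KO, against 1.79 ± 0.03 in WT (SD, n = 3). All 15 knockout libraries lay between 0.722 and 1.37, below the lowest WT library at 1.76. An exact permutation test, two-sided, gave p = 0.1 for each knockout against WT, the smallest p that 3 libraries against 3 allow, among 10 comparisons of the ratio. In Ring1a-KO the ratio was below that of WT with Olig1 lower and Olig2 higher, and in the other knockouts with both genes lower.

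**Figure D3:**
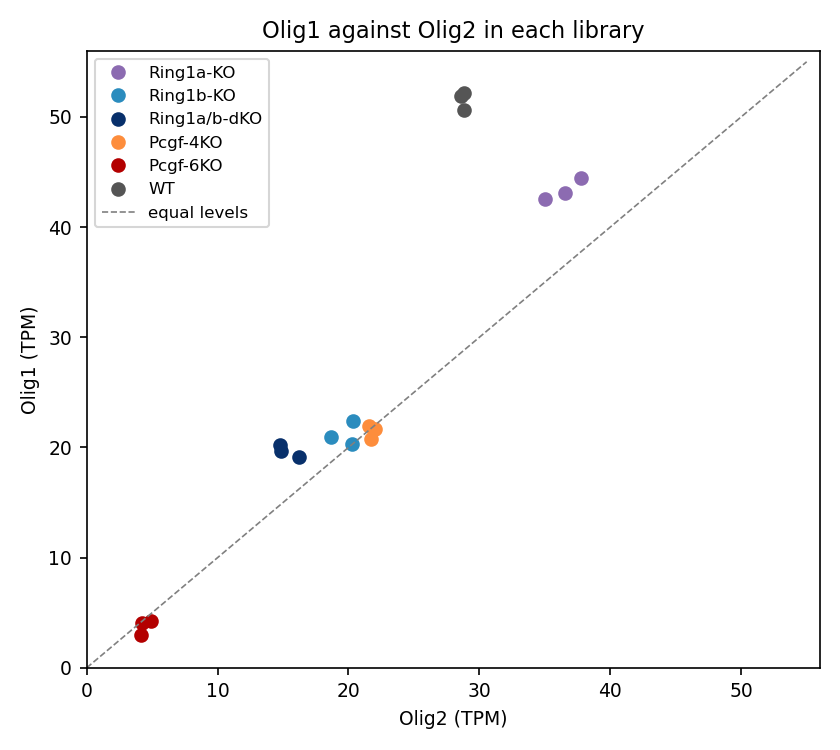
Olig1 level against Olig2 level (both in TPM) in each of the 18 libraries; the dashed line marks equal levels. WT libraries lie farthest above the line at a ratio of 1.79, and Pcgf-6KO libraries lie nearest the origin, with a mean ratio of 0.853.

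Neurod1, which drives neuronal and endocrine differentiation, lies on chromosome 2 at 79452521-79456751, minus strand. It measured 12.9, 10.9 and 14.4 TPM in Ring1a-KO, 3.25, 3.48 and 3.72 in Ring1b-KO, 2.50, 2.92 and 2.40 in Ring1a/b-dKO, 2.77, 2.20 and 2.22 in Pcgf-4KO cells and 4.66, 5.72 and 5.16 in Pcgf-6KO, against 17.99, 18.9 and 16.2 TPM in WT. No knockout group overlapped WT, and unlike Olig1 and Olig2 its lowest groups were Pcgf-4KO and Ring1a/b-dKO, which overlapped each other. Neurod1 fell by 2.06 ± 0.11 in Ring1b-KO, by 2.38 ± 0.11 in Ring1a/b-dKO, by 2.46 ± 0.11 in Pcgf-4KO (limma, adjusted p = 2.54e-11) and by 1.60 ± 0.11 in Pcgf-6KO. In Ring1a-KO the change was -0.45 ± 0.11 (adjusted p = 0.00679), and -0.42 with no call (adjusted p = 0.0673) without Ring1a-KO libraries 2 and 3 together. The annotation places Neurod1 inside Cerkl on the same strand, with 4231 bases of overlap. Cerkl was not called in any of these comparisons.

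Neurog1, a neuronal determination factor of sensory ganglia, lies on chromosome 13 at 56250478-56252163, minus strand. It had 4.38, 4.91 and 4.91 TPM in Ring1a-KO, 6.31, 7.55 and 7.13 in Ring1b-KO, 8.48, 7.72 and 7.80 in Ring1a/b-dKO, 6.36, 7.43 and 6.57 in Pcgf-4KO cells and 1.49, 1.45 and 1.70 in Pcgf-6KO, against 6.40, 5.37 and 6.08 TPM in WT. Pcgf-6KO lay far below all other groups, Ring1a/b-dKO lay above WT, and Ring1b-KO and Pcgf-4KO overlapped WT. Neurog1 fell by 1.45 ± 0.09 in Pcgf-6KO. The call of +0.37 ± 0.09 in Ring1a/b-dKO (limma, adjusted p = 0.00129) was not kept after median ratio scaling, at +0.05 (adjusted p = 0.594), and the sign turned after quantile normalization, at -0.15 (adjusted p = 0.111). Relative to the median of all genes, it was 0.09. In Ring1b-KO (0.20, adjusted p = 0.0617) and Pcgf-4KO (0.16, adjusted p = 0.107) it was not called. The Ring1b-KO value was called without the trended prior (adjusted p = 0.0444). It was also called without Ring1b-KO library 1 (0.27, adjusted p = 0.029) or without WT library 1 (0.25, adjusted p = 0.0469). Quantile normalization turned both signs, to -0.02 in Ring1b-KO and to a call of -0.21 in Pcgf-4KO (adjusted p = 0.032).

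In Ring1a-KO, Neurog1 changed by -0.28 ± 0.09 (limma, adjusted p = 0.0306). Without Ring1a-KO library 1 it was -0.23 (adjusted p = 0.11), without WT library 1 -0.23 (adjusted p = 0.12) and without WT library 3 -0.26 (adjusted p = 0.0885), none of them called. Without Ring1a-KO libraries 2 and 3 together, which leaves 1 library in that group, it was -0.37. The nearest tested protein-coding gene, Cxcl14, a chemokine gene, lies 36480 bases away. It rose in all 5 knockouts, by 0.44 in Ring1a-KO, 1.77 in Ring1b-KO, 2.35 in Ring1a/b-dKO, 2.18 in Pcgf-4KO and 1.23 in Pcgf-6KO.

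Atoh1, the factor of cerebellar granule cells, inner ear hair cells and intestinal secretory cells, lies on chromosome 6 at 64729125-64731245. It had 0.23, 0.31 and 0.17 TPM in Ring1a-KO, 0.90, 0.44 and 1.28 in Ring1b-KO, 1.77, 2.47 and 2.81 in Ring1a/b-dKO, 3.24, 2.80 and 3.19 in Pcgf-4KO cells and 4.75, 4.53 and 5.23 in Pcgf-6KO, against 0.70, 0.61 and 0.55 TPM in WT. Ring1a/b-dKO, Pcgf-4KO and Pcgf-6KO lay wholly above WT, Ring1b-KO overlapped WT and Ring1a-KO lay below it. Atoh1 rose by 1.04 ± 0.15 in Ring1a/b-dKO (limma, adjusted p = 1.63e-05), by 1.33 ± 0.15 in Pcgf-4KO (adjusted p = 1.17e-06) and by 1.85 ± 0.15 in Pcgf-6KO. In Ring1a-KO it was not called (-0.39 ± 0.15, adjusted p = 0.0711), though a pseudocount of 0.1 gave a call at -1.11 (adjusted p = 0.00921). Median ratio scaling (-0.43, adjusted p = 0.0407) and TPM rescaled to nuclear protein-coding genes (-0.44, adjusted p = 0.0448) also gave calls. So did fitting only Ring1a-KO and WT (adjusted p = 0.0145), and leaving out Ring1b-KO library 2 (adjusted p = 0.0307) or 3 (adjusted p = 0.0421). In Ring1b-KO it was not called (0.19, adjusted p = 0.318), and leaving out Ring1b-KO library 2 gave 0.36 (adjusted p = 0.0377).

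Neurog2, a cortical and motor neuron determination factor on chromosome 3 at 127633135-127635631, stayed near or below 1 TPM. It was at 0.03, 0.03 and 0 TPM in Ring1a-KO, 0.27, 0.24 and 0.11 in Ring1b-KO, 0.82, 0.62 and 0.88 in Ring1a/b-dKO, 0.35, 0.42 and 0.10 in Pcgf-4KO cells and 0.84, 0.99 and 1.19 in Pcgf-6KO, against 0.06, 0.06 and 0 TPM in WT, where 0 means listed at 0. Ring1b-KO, Ring1a/b-dKO, Pcgf-4KO and Pcgf-6KO lay wholly above WT. Fitted without the filter on low values, Neurog2 was called higher by 0.77 ± 0.09 in Ring1a/b-dKO (limma, adjusted p = 9.53e-06), by 0.30 ± 0.09 in Pcgf-4KO (adjusted p = 0.0206) and by 0.95 ± 0.09 in Pcgf-6KO (adjusted p = 7.49e-07). In Ring1b-KO the value was 0.21 (adjusted p = 0.12).

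Olig3, a factor of dorsal spinal cord progenitors on chromosome 10 at 19356533-19358604, had 0.03, 0.03 and 0.04 TPM in Ring1a-KO, 0.20, 0.16 and 0.28 in Ring1b-KO, 0.70, 0.55 and 0.21 in Ring1a/b-dKO, 0.31, 0.46 and 0.21 in Pcgf-4KO cells and 0.50, 0.43 and 0.52 in Pcgf-6KO, against 0.13, 0.10 and 0.25 TPM in WT. Only Ring1a-KO, below, and Pcgf-6KO, above, did not overlap WT. Without the filter it was called higher by 0.35 ± 0.10 in Ring1a/b-dKO (limma, adjusted p = 0.015) and by 0.36 ± 0.10 in Pcgf-6KO (adjusted p = 0.00983). Neurog3, the determination factor of pancreatic endocrine cells, lies on chromosome 10 at 62133090-62134763, inside Fam241b, which is on the opposite strand. It measured 1.30, 0.45 and 0.37 TPM in Ring1a-KO, 0.66, 0.77 and 0.73 in Ring1b-KO, 0.20, 0.27 and 0.16 in Ring1a/b-dKO, 0.26, 0.79 and 0.25 in Pcgf-4KO cells and 0.18, 0.50 and 0.05 in Pcgf-6KO, against 0.50, 0.57 and 0.77 TPM in WT. Ring1a/b-dKO alone did not overlap WT, and no comparison with WT was called without the filter. The sources used here do not say whether counting used strand, so reads from Neurog3 and Fam241b cannot be told apart with certainty, and Fam241b was called higher by 0.88 in Ring1a/b-dKO and by 0.81 in Pcgf-6KO.

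Loss of Ring1b and loss of Ring1a differed for all 5 tested members. Ring1b-KO against Ring1a-KO gave -1.0 ± 0.08 for Olig1, -0.85 ± 0.06 for Olig2, -1.61 ± 0.11 for Neurod1, 0.48 ± 0.09 for Neurog1 and 0.58 ± 0.15 for Atoh1, all called by limma, beside 51% of all genes called. The Atoh1 call was not kept after quantile normalization (0.17, adjusted p = 0.348). Without Ring1a-KO libraries 2 and 3 together, which leaves 1 library in that group, Atoh1 was at 0.58. Ring1a/b-dKO against Ring1b-KO called 3 of the 5 (59.9% of all genes): Olig2 at -0.35 ± 0.06, Neurod1 at -0.32 ± 0.11 and Atoh1 at 0.85 ± 0.15. The Neurod1 value missed the threshold without Ring1b-KO library 3 (-0.28, adjusted p = 0.0667), without Ring1a/b-dKO library 1 (-0.30, adjusted p = 0.0561) or without library 3 (-0.27, adjusted p = 0.07). Olig1 was at -0.10 ± 0.08 there and was not called (adjusted p = 0.287), but it was called at -0.28 after median ratio scaling (adjusted p = 0.00541) and at -0.32 after quantile normalization (adjusted p = 0.00386).

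The interaction asks whether the change with Ring1b loss differs between cells that lack Ring1a and cells that have it. It was called for 3 of the 5 members, beside 48.7% of all genes: Olig2 at -0.68 ± 0.08 (limma, adjusted p = 7.57e-06), Neurog1 at 0.45 ± 0.12 (adjusted p = 0.0066) and Atoh1 at 1.24 ± 0.21 (adjusted p = 1.71e-04). For Olig2, Ring1a-KO was above WT while Ring1a/b-dKO was below Ring1b-KO. Without Ring1a-KO libraries 2 and 3 together, which leaves 1 library in that group, the values were -0.74 for Olig2, 0.54 for Neurog1 and 1.25 for Atoh1. Atoh1 passed the filter only through knockout libraries. The Neurog1 interaction was not called after quantile normalization, at 0.19 (adjusted p = 0.188).

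By its label, Pcgf-6KO lacks Pcgf2 and Pcgf4 beyond the genes missing in Pcgf-4KO, though Bmi1 (Pcgf4) RNA was above WT there. Pcgf-6KO against Pcgf-4KO was called for all 5 tested members (52.8% of all genes). Olig1 was lower by a log2 change of -2.25 ± 0.08, Olig2 by -2.08 ± 0.06 and Neurog1 by -1.61 ± 0.09, while Neurod1 was higher by 0.86 ± 0.11 and Atoh1 by 0.52 ± 0.15. The Atoh1 call was not kept with a pseudocount of 0.1 (0.64, adjusted p = 0.0712) or after quantile normalization (0.31, adjusted p = 0.0862). Neurod1 thus had less RNA in Pcgf-4KO than in Pcgf-6KO, the opposite order to Olig1, Olig2 and Neurog1.

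Against Ring1a/b-dKO, Pcgf-6KO gave -2.13 ± 0.08 for Olig1, -1.59 ± 0.06 for Olig2, -1.82 ± 0.09 for Neurog1, 0.78 ± 0.11 for Neurod1 and 0.81 ± 0.15 for Atoh1, all called (58% of all genes). Pcgf-4KO against Ring1a/b-dKO called 1 of the 5, Olig2 at 0.49 ± 0.06 (limma, adjusted p = 1.4e-05; 37.4% of all genes called). The other 4 lay between -0.21 and 0.29, and a missed threshold does not show that they were equal. Neurog2, fitted without the filter, was lower in Pcgf-4KO than in Ring1a/b-dKO by a log2 change of -0.46 ± 0.09 (adjusted p = 0.00274), where that fit called 18.2% of genes.

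Among the dimer partners and their Id antagonists, Tcf3 and Tcf4 fell while Id1 and Id2 rose in Ring1a/b-dKO, Pcgf-4KO and Pcgf-6KO. Tcf3, which encodes the E proteins E12 and E47, averaged 94.9 ± 7.5 TPM in Ring1a-KO, 65.2 ± 4.8 in Ring1b-KO, 73.3 ± 1.5 in Ring1a/b-dKO, 61.8 ± 2.0 in Pcgf-4KO and 36.4 ± 2.0 in Pcgf-6KO, against 91.6 ± 2.0 TPM in WT. It fell in every knockout but Ring1a-KO, by 1.31 in Pcgf-6KO. Tcf4, another E protein gene, fell in the same 4 groups, to 3.48 ± 0.47 TPM in Pcgf-6KO, against 9.90 ± 0.45 TPM in WT. Tcf12, the remaining one, rose to 30.0 ± 0.7 TPM in Pcgf-4KO and 34.7 ± 8.2 TPM in Pcgf-6KO, against 16.6 ± 1.7 TPM in WT. Id2 averaged 145 ± 14 TPM in Ring1a-KO, 55.8 ± 2.7 in Ring1b-KO, 180 ± 4 in Ring1a/b-dKO, 609 ± 7 in Pcgf-4KO and 403 ± 4 in Pcgf-6KO, against 52.7 ± 3.8 TPM in WT. It rose in every knockout but Ring1b-KO, by 3.51 in Pcgf-4KO and 2.91 in Pcgf-6KO, and so did Id1, by 1.18 to 1.61. In Ring1b-KO, Id1 was not called at 0.12 (adjusted p = 0.106), and was called at 0.14 with TPM rescaled to nuclear protein-coding genes (adjusted p = 0.0356). Id3 rose in Ring1a/b-dKO, Pcgf-4KO and Pcgf-6KO but fell in Ring1a-KO and Ring1b-KO, and Id4 fell in all but Ring1a-KO. Of these 7 genes, all at 1 TPM or more in WT, 4 rose and 3 fell in Pcgf-6KO. Among all tested genes at that level, 46.7% were higher and 27.8% lower.

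**Figure D4:**
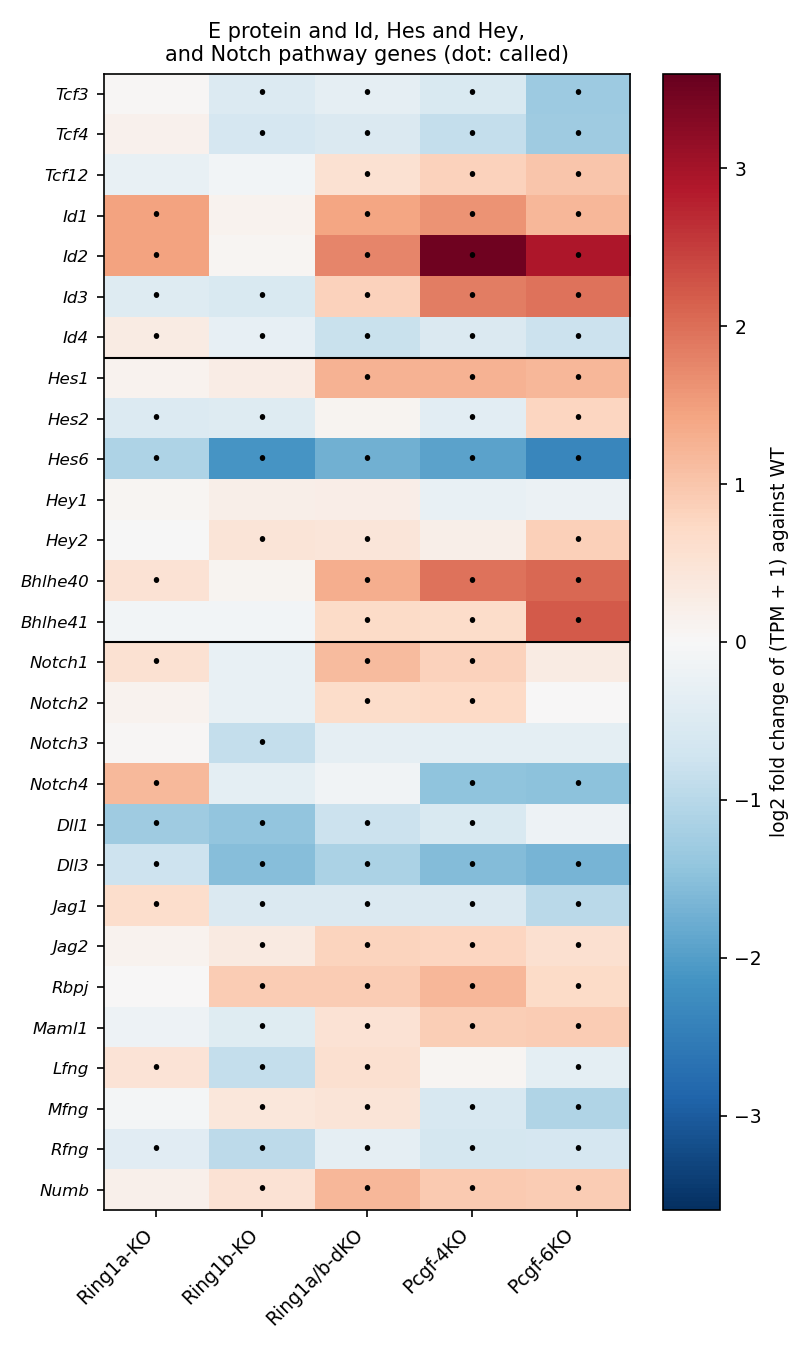
Log2 fold change of (TPM + 1) against WT (colour) of the E protein and Id genes, the Hes and Hey repressor genes and the Notch pathway genes that passed the filter, with a dot where limma called the change. Id2 is the strongest red in Pcgf-4KO at 3.51, and Hes6 is blue in all 5 knockouts.

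Among the 12 Hes and Hey repressor genes, 7 passed the filter. Hes6, which counteracts Hes1 and marks neuronal commitment, averaged 33.9 ± 0.9 TPM in Ring1a-KO, 16.5 ± 2.6 in Ring1b-KO, 21.8 ± 1.1 in Ring1a/b-dKO, 19.0 ± 1.2 in Pcgf-4KO and 14.05 ± 1.1 in Pcgf-6KO, against 75.2 ± 7.5 TPM in WT. It fell in all 5, by 1.12 to 2.34. Hes1, the Notch effector that represses proneural genes, rose by 1.25 in Ring1a/b-dKO, 1.26 in Pcgf-4KO and 1.19 in Pcgf-6KO. All 14 tested Notch pathway genes reached 1 TPM in WT. In Ring1a/b-dKO 8 rose and 4 fell, beside 46.9% higher and 19.5% lower among all tested genes at that level. In Pcgf-4KO 6 rose and 6 fell (45.3% and 22.1%), and in Pcgf-6KO 4 rose and 6 fell (46.7% and 27.8%). Dll3, a Notch ligand family gene that proneural factors can switch on, fell in all 5, to 2.52 ± 0.56 TPM in Pcgf-6KO, against 10.1 ± 0.8 TPM in WT. Dll1, a Notch ligand gene, fell in all but Pcgf-6KO, where it was called after median ratio scaling, at -0.50 (limma, adjusted p = 0.0149). Its call in Pcgf-4KO, at -0.56, was lost without Pcgf-4KO library 1, at -0.41 (adjusted p = 0.0571).

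Genes of neuronal differentiation fell more often than they rose in 4 groups. Of 16 tested neuronal genes, 7 rose and 2 fell in Ring1a-KO, 4 rose and 9 fell in Ring1b-KO, 4 rose and 9 fell in Ring1a/b-dKO, 5 rose and 10 fell in Pcgf-4KO, and 4 rose and 12 fell in Pcgf-6KO. Of these genes 13 reached 1 TPM in WT, and the other 3 passed the filter through knockouts. In Pcgf-6KO, 1 of the 13 rose and 12 fell, beside 46.7% higher and 27.8% lower among all tested genes at that level. In Ring1b-KO 1 of the 13 rose and 9 fell (31.1% and 21.1%), and in Ring1a/b-dKO 1 rose and 9 fell (46.9% and 19.5%). In Ring1a-KO, 7 of the 13 rose and 2 fell (13.7% and 13.3%). The median log2 change of the 16 in Pcgf-6KO was -0.72, beside 0.33 over all tested genes. Insm1, a zinc finger gene downstream of proneural factors, fell in all 5, to 0.98 ± 0.17 TPM in Pcgf-6KO, against 6.45 ± 0.41 TPM in WT. Stmn2, a neuronal microtubule regulator, averaged 250 ± 15 TPM in Ring1a-KO, 157 ± 6 in Ring1b-KO, 59.6 ± 2.4 in Ring1a/b-dKO, 50.2 ± 2.3 in Pcgf-4KO and 17.1 ± 1.0 in Pcgf-6KO, against 161 ± 4 TPM in WT. In Pcgf-4KO, 2 of the 13 rose and 10 fell, beside 45.3% higher and 22.1% lower among all tested genes at that WT level. The 2 were Nefm, at 5.01 ± 0.31 TPM, against 1.05 ± 0.03 TPM in WT, and Rbfox3, at 6.45 ± 1.91 TPM, against 3.07 ± 0.70 TPM. Of 15 tested neural progenitor genes, 7 reached 1 TPM in WT, and the other 8 passed the filter through knockouts, so they had to differ. Of the 7, 1 rose and 4 fell in Pcgf-6KO, and 4 rose and 3 fell in Ring1a/b-dKO, where 46.9% of all tested genes at that WT level were higher and 19.5% lower. Sox2, shared by stem cells and neural progenitors, fell to 46.7 ± 1.4 TPM in Pcgf-6KO, against 247 ± 6 TPM in WT, while Zic1, a neural plate gene, reached 8.50 ± 0.83 TPM, against 0.03 ± 0.04 TPM.

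Of 9 tested oligodendrocyte lineage genes, 5 reached 1 TPM in WT. Of these, 2 rose and 2 fell in Pcgf-6KO, and 3 rose and 1 fell in Ring1a/b-dKO. The other 4 passed the filter through knockouts, so they had to differ, and all were higher in both groups. Among all tested genes under 1 TPM in WT, 71% were higher in Pcgf-6KO and 55.5% in Ring1a/b-dKO. Sox10, the factor of glial and neural crest cells, averaged 8.13 ± 0.26 TPM in Ring1a/b-dKO, against 0.40 ± 0.16 TPM in WT. Myrf, the myelin regulator, fell in all 5, to 5.03 ± 1.7 TPM in Pcgf-6KO, against 19.6 ± 1.2 TPM in WT. Gpr17, a defining marker of that lineage, was listed at 0 in all 3 libraries of Ring1a/b-dKO, Pcgf-4KO and WT. Of 14 pancreatic endocrine genes, 6 were tested and 2 of them reached 1 TPM in WT. These were Insm1, above, and the neuroendocrine granule gene Chga, which averaged 17.9 ± 0.9 TPM in Ring1b-KO and 4.34 ± 0.49 TPM in Pcgf-6KO, against 12.1 ± 0.1 TPM in WT. The other 4 passed the filter through knockouts, so they had to differ. All 4 were higher in Ring1b-KO, Ring1a/b-dKO, Pcgf-4KO and Pcgf-6KO. Among all tested genes under 1 TPM in WT, 49.1%, 55.5%, 54.2% and 71% were higher there, in that order. Ins1 and Ins2, the insulin genes, were listed at 0 in every library, and Pdx1, the pancreas factor, averaged 3.37 ± 0.38 TPM in Ring1a/b-dKO, against 0.03 ± 0.03 TPM in WT. Of 15 other neural bHLH genes, 4 passed the filter, 1 of them at 1 TPM in WT. That was Ascl2, a trophoblast and stem cell factor, at 36.4 ± 2.1 TPM in Pcgf-4KO and 44.7 ± 2.8 TPM in Pcgf-6KO, against 6.67 ± 1.1 TPM in WT.

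Markers of other cell types moved with the groups. The 10 trophoblast markers summed to between 5785 and 5894 TPM in Pcgf-6KO, 1502 and 1530 TPM in Pcgf-4KO, and 1354 and 1375 TPM in Ring1a/b-dKO, against 102 to 108 TPM in WT. All 10 rose in each of those groups and in Ring1b-KO, where they summed to between 238 and 245 TPM. In Ring1a-KO, 5 of the 10 rose and 1 fell. Of the 10, 3 were under 1 TPM in WT and passed the filter through knockouts. The other 7 all rose in Ring1b-KO, Ring1a/b-dKO, Pcgf-4KO and Pcgf-6KO. Among all tested genes at 1 TPM or more in WT, 31.1%, 46.9%, 45.3% and 46.7% were higher there, in that order. In Ring1a-KO 4 of the 7 rose and 1 fell (13.7% and 13.3%). Krt18, an epithelial keratin gene, reached 2863 TPM in Pcgf-6KO, against 35.9 TPM in WT. Keratin genes made up most of the sum in Pcgf-4KO, with Krt18 at 703 TPM and Krt8 at 455 TPM of a mean sum of 1517 TPM. The 10 embryonic stem cell genes summed to between 1900 and 2326 TPM in Pcgf-6KO, against 4564 to 4627 TPM in WT. All 10 reached 1 TPM in WT. In Pcgf-6KO 2 rose and 8 fell, beside 46.7% higher and 27.8% lower among all tested genes at that level. In Ring1b-KO the 10 summed to between 7657 and 8299 TPM, and 7 rose and 3 fell (31.1% and 21.1%). The 8 fibroblast markers summed to 11.6 to 14.3 TPM in Pcgf-6KO, against 13.6 to 16.4 TPM in WT. Of 7 tested endoderm markers, 2 reached 1 TPM in WT, and in Pcgf-6KO 1 of these rose and 1 fell. The other 5 passed the filter through knockouts and all rose, beside 71% higher among all tested genes under 1 TPM in WT. The median log2 change of the endoderm markers tested was 1.86. Their sum was 35.5 to 43.8 TPM in Pcgf-6KO, against 27.6 to 29.5 TPM in WT, where 1 gene, Lama1, made up 25.5 TPM; Lama1 averaged 1.64 TPM in Pcgf-6KO. Of 7 tested mesoderm markers, the 2 at 1 TPM in WT fell in Pcgf-6KO. The other 5 passed the filter through knockouts, and 4 of them rose. Over the 7 tested mesoderm markers, the median log2 change was 0.56. Their sum was 16.2 to 18.5 TPM in Pcgf-6KO, against 87.7 to 103 TPM in WT, and Tcf15 alone averaged 9.70 TPM in Pcgf-6KO, against 86.05 TPM in WT. The part of these changes in the levels of the bHLH genes was not tested.

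Across the 18 libraries, the level of each tested member was set beside that of 14326 protein-coding genes, as Pearson correlations of log2(TPM + 1), which describe libraries that share groups. Nearest to Olig1 were Tfdp1 (r = 0.987), a partner of E2F factors, Rbpms2 (0.984) and G3bp1 (0.977). For Olig2 they were Pcgf2 (0.981), which is itself deleted in Pcgf-6KO, Ipo8 (0.980) and Sox2 (0.980). Nearest to Neurod1 were Syt4 (0.983), a synaptotagmin gene, Lpar4 (0.976) and Tuba1a (0.972), a neuronal tubulin gene at 462 TPM in Pcgf-6KO, against 1072 TPM in WT. Neurog1 had looser neighbours, Abcc4 (0.953), Hdhd5 (0.950) and 2610507B11Rik (0.950). Atoh1 lay nearest to Selenos (0.983) and Sys1 (0.982), genes that like it were highest in Pcgf-6KO.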

How the data were processed

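RNA from mouse embryonic stem cells was sequenced from TruSeq libraries, per the labels' protocols. Tools and build are known from the submitters' processing notes: GRCm38.p5, edgeR, RSEM and TopHat2 2.1.1, with no role for each. The annotation release and the use of strand are not stated there. The deposited table holds TPM (length-corrected shares, per the file headers) to 2 decimals for 56551 genes in 18 libraries, each summing to 1000000. Depth is unknown, because TPM keeps none, so no counting interval is given. The table's 6 columns of group means were not used.

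Gene symbols came from GENCODE M21 (55141 identifiers matched). Values were tested as log2(TPM + 1) with limma 3.58.1 in R 4.3.3 (1 mean per group, 12 residual degrees of freedom, trended empirical Bayes, Benjamini-Hochberg adjustment within each of 11 comparisons) over the 17842 genes that reached 1 TPM in 3 libraries or more. The test was tried on simulated data first. Among all genes, 86 with a median of at least 5 TPM are listed at 0 in some library, so a 0 is given as listed. The ratio of Olig1 to Olig2 was tested by exact permutation. The members and the gene lists were chosen with earlier results of these data known. Genes outside the 8 members were named by rule: in each list and comparison with WT, up to 3 called rises and 2 called falls of the largest size among genes averaging 2 TPM in the higher group, plus all E protein and Id genes and the 3 protein-coding genes nearest each member by correlation. Neighbouring genes within 100 kb are also named, as are Hes1, Dll1, Stmn2, Tcf12 and Id4 in comparisons outside that rule. Some results this naming covers are not reported here. Alternatives covered the filter, pseudocount, scaling, prior, samples fitted and each library left out.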

Additional observations from a re-analysis of the deposited data

Results flagged for a closer look

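For 3 members the change with Ring1b loss differed between cells lacking Ring1a and cells that have it, by limma's interaction term with adjustment over all tested genes, which called 48.7% of them. Olig2 had an interaction of -0.68 ± 0.08 (log2, SE, adjusted p = 7.57e-06). With Ring1a missing, Ring1a/b-dKO averaged 15.3 TPM, against 36.5 TPM in Ring1a-KO; with Ring1a present, Ring1b-KO averaged 19.8 TPM, against 28.7 TPM in WT. Atoh1, which passed the filter only through knockout libraries and so had to differ, had an interaction of 1.24 ± 0.21 (adjusted p = 1.71e-04), with 2.35 TPM in Ring1a/b-dKO, against 0.24 TPM in Ring1a-KO, and 0.87 TPM in Ring1b-KO, against 0.62 TPM in WT. Neurog1 had an interaction of 0.45 ± 0.12 (adjusted p = 0.0066), with 8.0 TPM in Ring1a/b-dKO, against 4.73 TPM in Ring1a-KO, and 7.00 TPM in Ring1b-KO, against 5.95 TPM in WT. All 3 calls were kept with any single library left out. Leaving out Ring1a-KO libraries 2 and 3 together, which hold more small RNA, leaves 1 library in that group. The values were then -0.74 for Olig2, 1.25 for Atoh1 and 0.54 for Neurog1. The Neurog1 interaction was lost under quantile normalization, at 0.19 (adjusted p = 0.188).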

How the results depend on the processing

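The 11 counts of members called and the 55 member values (43 called) were recomputed under 27 other settings. Leaving out Ring1a-KO libraries 2 and 3 together was chosen after seeing the data. It leaves 1 library in that group, so no count of calls is given for it. For Ring1a-KO against WT, 4 members were called, and 2 to 5 with 1 library left out. Ring1a/b-dKO against Ring1b-KO called 3, 5 without the filter (8 genes tested) and 2 to 3 with 1 library left out. Pcgf-4KO against Ring1a/b-dKO called 1, 2 without the filter, after quantile normalization or without the trended prior, and 1 to 2 with 1 library left out. The interaction called 3, and 5 without the filter. With 1 library left out, Ring1b-KO against WT called 3 to 4, and the other 6 counts were as reported.

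Signs turned for 8 member values under 1 or both of 2 scalings, and of these only the Neurog1 value in Ring1a/b-dKO had been called. Under quantile normalization, Neurog1 became -0.0199 in Ring1b-KO, -0.15 in Ring1a/b-dKO and -0.21 in Pcgf-4KO against WT, and -0.13 in Ring1a/b-dKO against Ring1b-KO. Neurod1 became 0.11 in Pcgf-4KO against Ring1a/b-dKO and -0.075 in the interaction, Atoh1 -0.24 in Ring1b-KO against WT, and the Olig1 interaction -0.089. Under median ratio scaling, Neurog1 became -0.12 in Pcgf-4KO against WT and the Olig1 interaction -0.0087. Nanog in Pcgf-4KO against WT became -0.0095 under quantile normalization and -0.20 under median ratio scaling. The cause was not tested. The share of calls that were higher was 46.4% in Ring1b-KO and 48.2% in Ring1a/b-dKO against WT under quantile normalization, and 67% and 75.5% before it.

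The replicate numbers do not pair the libraries: of 45 pairs with the same number, 0 correlated over 0.1 (median 0.006), and 8 of 18 libraries correlated best with their own number. The fit with a replicate block kept all 55 member values on their side of the threshold. TPM carry no depth, and Olig3, Neurog2 and Neurog3, under 1 TPM in most libraries, are the least certain values.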

Other observations

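Genes within 100 kb of the members did not share one direction. Larp7, 79786 bases from Neurog2, fell in 4 of the 5 knockouts, by 0.76 in Ring1a/b-dKO and by 0.43 in Pcgf-6KO, while Neurog2 was higher there. Tifab, 71593 bases from Neurog1, rose by 1.57 in Pcgf-4KO and by 0.80 in Pcgf-6KO, where Neurog1 was not called and lower. The antisense noncoding gene Gm15966, which overlaps Olig1 by 157 bases, reached at most 0.43 TPM in any library.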
